A study of Rattus norvegicus with 44 samples.

Results

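Oligodendrocyte precursors are the proliferating glial cells from which myelin-forming oligodendrocytes arise, in the adult brain as well as during development. The 10 genes followed here, all with a row in the deposited tables, are Pdgfa, Pdgfra, Olig1, Olig2, Cspg4, C1ql1, Tnr, Gpr17, Neu4 and Bcas1. They were chosen by symbol, 10 of 20003 rows in CA1 and 10 of 20050 in the dentate gyrus (DG), and all 10 were among the 14915 and 14904 genes tested. A single hippocampus from every one of 22 male rats supplied both regions, and sequencing of their polyadenylated RNA gave 44 libraries. Young vehicle rats (n = 8), 5 to 7 months old, received saline, young LPS rats (n = 8) of the same age received lipopolysaccharide, a bacterial endotoxin, at 1 mg per kg, and aged vehicle rats (n = 6), 14 to 16 months old, received saline. Every group, the controls included, was injected into the abdomen weekly, 7 times, with collection of the brain 48 hours after the seventh dose. The sources used here do not give the strain. No allele or transgene is named for any group.

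Platelet-derived growth factor A, the product of Pdgfa, is released by neurons and astrocytes and drives precursors to divide through its receptor, the product of Pdgfra. Olig1 and Olig2 encode the helix-loop-helix transcription factors of the lineage and stay active in mature oligodendrocytes. As precursors leave the cycle they lose Pdgfra and the NG2 proteoglycan encoded by Cspg4, pass through a short stage that carries the receptor Gpr17, and then take up early myelin genes such as Bcas1. Pdgfra also marks fibroblasts and Cspg4 also marks the mural cells of vessels, so markers of those cells are given beside the results.

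Libraries held 12292346 to 18749666 recovered reads in CA1 and 12130182 to 23519791 in DG. Values are normalized reads, the scale the authors deposited, and log2 changes are on log2(value + 1). Genes are not compared in level with one another, since these values are not per length. Summed CA1 pyramidal markers ran from 23914 to 57900 in CA1 libraries and from 2116 to 16747 in DG libraries. Summed dentate granule markers spanned 1744 to 8296 in the former and 7654 to 14223 in the latter, so the labelled regions separate by the first list and overlap by the second. The tables were normalized separately, so levels in the regions stand side by side without a test. Aged replicate 2532 stood apart in CA1, and CA1 changes that it moved by over 1.5 times are given with and without it.

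Every one of the 10 genes was detected in every library. The lowest value, Gpr17 in the CA1 library of aged replicate 2532, rested on 16 reads, and the next lowest minimum among the genes, Gpr17 in DG, on 71 reads. Between young LPS and young vehicle rats none of the genes passed the limma test in CA1 (0% of all genes passed) or in DG (0.0134%). Gpr17 and C1ql1 passed it in CA1 between young LPS and aged vehicle rats, both higher in young LPS, in a comparison in which 8.73% of all genes passed. Those groups differ in both age and treatment, which cannot be told apart in that comparison. In DG the lowest unadjusted p-values belonged to Pdgfa and Neu4, both lowest in aged rats, and neither passed.

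Promoter windows of 7 of the 10 genes were found by symbol in RefSeq (build GRCr8), each of 300 bases from 250 before to 50 after the gene's start. Those of Pdgfra and Olig2 are shown because the levels of these genes varied together across rats in DG, as described further on. Capitals mark matches, on either strand, to the E-box CANNTG, which helix-loop-helix factors such as Olig2 bind, and to the SOX core ACAANG.
Pdgfra (chr14:33408467-33408766, minus strand): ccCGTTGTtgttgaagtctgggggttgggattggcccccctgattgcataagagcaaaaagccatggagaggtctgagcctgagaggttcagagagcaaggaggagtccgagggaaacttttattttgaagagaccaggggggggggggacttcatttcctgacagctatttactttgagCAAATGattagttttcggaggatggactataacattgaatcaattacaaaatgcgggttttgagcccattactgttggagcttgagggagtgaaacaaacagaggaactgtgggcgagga
Olig2 (chr11:43961335-43961634, plus strand): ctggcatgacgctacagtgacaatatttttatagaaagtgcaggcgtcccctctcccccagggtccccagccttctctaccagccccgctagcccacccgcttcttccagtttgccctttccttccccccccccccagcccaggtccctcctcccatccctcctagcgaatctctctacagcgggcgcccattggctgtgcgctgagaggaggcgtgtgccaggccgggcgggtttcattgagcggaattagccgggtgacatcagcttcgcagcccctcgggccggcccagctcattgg
The Pdgfra window held 1 E-box and 1 SOX core with no base in both, and these letters did not occur in the Olig2 window. Of all 33469 windows of this length, 72.1% held an E-box and 42.1% a SOX core, and of the 7 windows found for the genes here, 4 and 2 did. A match describes letters only, and nothing about binding follows from it.

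Pdgfra, the receptor, was among the steadiest of the genes, its highest library 1.58-fold its lowest in CA1 and 1.64-fold in DG, where Gpr17 spanned 16.4-fold and 2.47-fold. In CA1 its values ran from 920 to 1346 (median 1103) in young vehicle, from 856 to 1221 (median 1172) in young LPS and from 1125 to 1352 (median 1157) in aged vehicle rats. The ranges overlapped throughout, although all 6 aged libraries lay above the young vehicle median. The log2 change in CA1 was 0.01 for LPS (95% interval -0.19 to 0.21) and 0.15 with age (-0.06 to 0.37). In DG its means were 937 ± 114 (SD, n = 8) for young vehicle, 862 ± 98.4 (SD, n = 8) for young LPS and 922 ± 165 (SD, n = 6) for aged vehicle, again with overlapping ranges. The changes in DG were -0.12 for LPS (-0.32 to 0.08) and -0.03 with age (-0.25 to 0.18). In tissue RNA of this kind, fewer cells of a type and less RNA per cell cannot be told apart.

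Pdgfa, the ligand, was lower in aged DG without passing the test. Its DG values ran from 327 to 384 (median 349) in aged vehicle, from 367 to 636 (median 466) in young vehicle and from 350 to 542 (median 424) in young LPS rats. All 6 aged libraries lay below the young vehicle median and 7 of 8 young vehicle libraries lay above every aged one. The log2 change with age was -0.38 (SE 0.11, 95% interval -0.59 to -0.16). Its unadjusted limma p of 0.00128 ranked 10 of 14904 genes, and the adjusted p was 1.00. Leaving out 1 library at a time gave changes of -0.42 to -0.31. The change was -0.42 with the rats' number series as a covariate, that is, whether the animal's number began with 24, 25 or 27. Series and age were partly tangled: 4 aged rats were in series 24 and 2 in series 25. Young vehicle rats were 1, 4 and 3 in series 24, 25 and 27, so this covariate separates series from age only in part. The Pdgfa change was -0.27 without replicates 2526, 2572 and 2532, which were high in fibroblast markers. A fit with the dissection score (mean CA1 pyramidal less mean dentate granule marker level) as a covariate lay between -0.42 and -0.27. The higher pyramidal markers of aged DG libraries were not tested beyond that fit. In CA1 the change of Pdgfa with age was 0.05 (-0.27 to 0.38) and rested on replicate 2532, at 658, where the other 5 aged libraries ran from 342 to 396. Without that replicate it was -0.08. The difference between regions in the change of Pdgfa with age was 0.43 (SE 0.20), with an adjusted p of 0.735 by limma within rats. That difference takes in replicate 2532 and was not fitted without it.

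Neither transcription factor passed the test in any comparison. Olig1 in CA1 ran from 1266 to 2668 (median 2003) in young vehicle, from 1682 to 3496 (median 2251) in young LPS and from 818 to 2359 (median 1886) in aged vehicle. Its log2 change between young LPS and aged vehicle was 0.37 (-0.03 to 0.77), and 0.15 without replicate 2532, which held the value of 818. In DG the order was the other way: all 8 young LPS libraries lay below the aged median of 1620, and the change was -0.33 (-0.66 to 0.00). Olig2 in CA1 had means of 645 ± 170 (SD, n = 8) for young LPS, 572 ± 67.8 (SD, n = 8) for young vehicle and 521 ± 55.7 (SD, n = 6) for aged vehicle. Young LPS rats had the wider spread of Olig2 in CA1, from 428 to 938, with 3 libraries above every young vehicle library and 2 below. In DG Olig2 had means of 391, 362 and 401 in young vehicle, young LPS and aged vehicle.

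**Figure D1:**
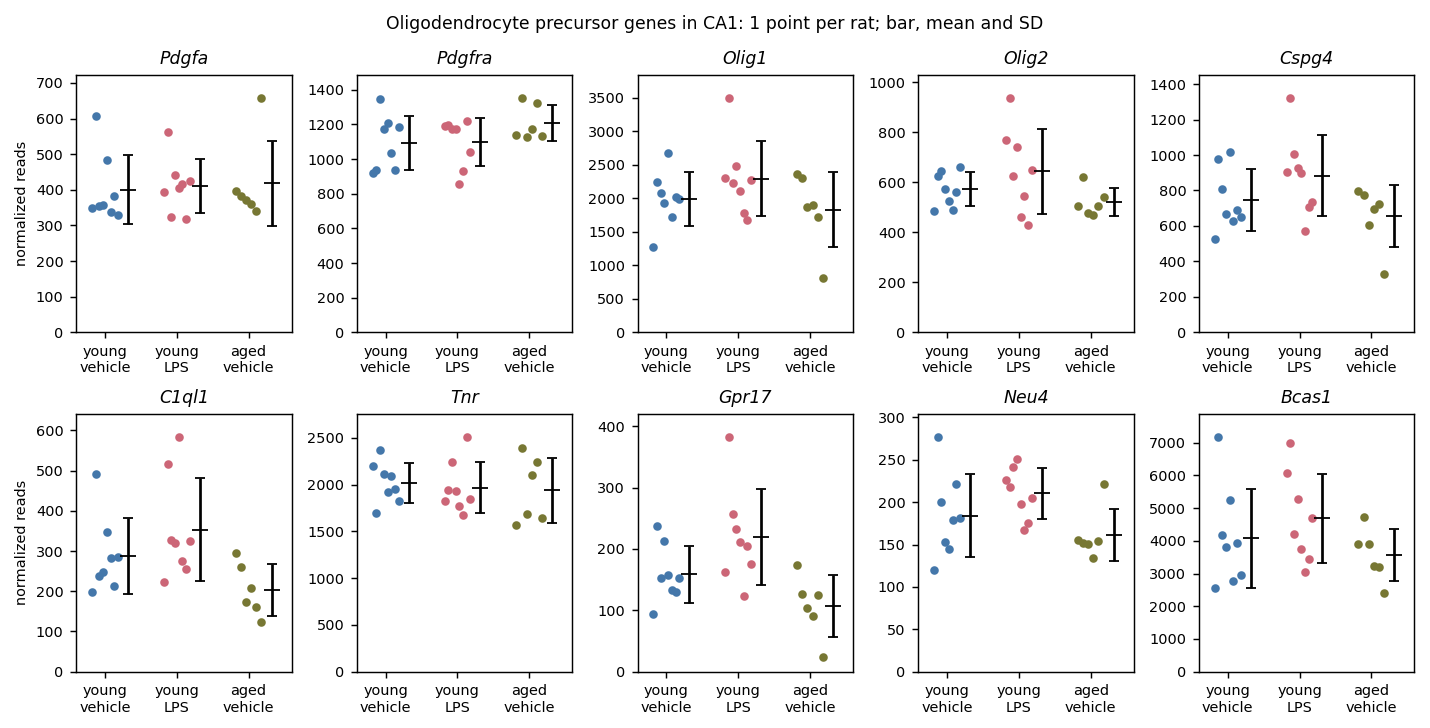
Normalized reads of each gene in CA1 (vertical axes, linear from 0), 1 point per rat by group, with the group mean and SD as a bar. Gpr17 ran from 124 to 382 in young LPS and from 23.3 to 173 in aged vehicle rats, and 1 aged library lay lowest in Olig1, Cspg4, C1ql1, Gpr17 and Bcas1.

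Cspg4 and C1ql1 are surface and secreted products of precursors, C1ql1 encoding a protein of the C1q family. Cspg4 in CA1 ran from 569 to 1322 (median 900) in young LPS, from 528 to 1018 (median 678) in young vehicle and from 327 to 797 (median 710) in aged vehicle. Its change between young LPS and aged vehicle was 0.45 (SE 0.19, limma adjusted p = 0.103), and 0.26 without replicate 2532. The change of Cspg4 with age in CA1 was -0.21 (-0.61 to 0.19), and -0.02 without that replicate. C1ql1 in CA1 ran from 222 to 583 (median 323) in young LPS, from 198 to 491 (median 265) in young vehicle and from 124 to 295 (median 190) in aged vehicle. All 8 young LPS libraries exceeded the aged median and 5 exceeded every aged library. The log2 change of C1ql1 was 0.78 (SE 0.23, limma adjusted p = 0.0490), a fold of 1.72. Against young vehicle it was 0.28 (-0.16 to 0.71) for LPS and -0.50 (-0.97 to -0.04) with age, neither past the adjusted threshold. In DG, C1ql1 was below the young vehicle median of 255 in all 6 aged libraries, with a change of -0.32 (SE 0.14) that did not pass. It moved to -0.24 without young vehicle replicate 2526, the highest library at 389, and to -0.20 without replicates 2526, 2572 and 2532, which were high in fibroblast markers.

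Tnr encodes tenascin-R, a matrix glycoprotein of the lineage and of perineuronal nets. It varied little: its means in CA1 were 2022, 1969 and 1940 in young vehicle, young LPS and aged vehicle, with changes of -0.04 for LPS and -0.07 with age, the latter -0.03 without replicate 2532. In DG the 8 young LPS libraries ran from 1676 to 2367 and 7 of them exceeded every aged library (1636 to 2146). That change was 0.20 (-0.02 to 0.41).

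Gpr17, the receptor of the passing stage between precursor and oligodendrocyte, differed most between groups in CA1. It ran from 124 to 382 (median 209) in young LPS, from 93.5 to 238 (median 153) in young vehicle and from 23.3 to 173 (median 114) in aged vehicle. All 8 young LPS libraries exceeded the aged median, 6 exceeded every aged library, and 3 aged libraries lay below every young LPS library. The change between young LPS and aged vehicle was 1.17 (SE 0.32, limma adjusted p = 0.0490), a fold of 2.24. Against young vehicle it was 0.44 (-0.16 to 1.04) for LPS and -0.72 (-1.37 to -0.08) with age, with adjusted p-values of 0.654 and 0.393. The change of Gpr17 with age was -0.34 without aged replicate 2532. In DG, Gpr17 had means of 122, 111 and 108 in young vehicle, young LPS and aged vehicle. The difference between regions in its change between young LPS and aged vehicle was 1.18 (SE 0.39), with an adjusted p of 0.0565 by limma within rats. That difference takes in replicate 2532, at 23.3 in CA1, and was not fitted without it.

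Both CA1 calls were marginal. The adjusted p of 0.0490 is shared by many genes, and 8.73% of all 14915 genes passed in this comparison (3.49% higher and 5.24% lower in young LPS), against 2 of the 10 genes here. Both calls were made by edgeR (adjusted p = 0.0339 for Gpr17 and 0.0358 for C1ql1) and DESeq2 (0.00965 and 0.0129) on recovered reads. Without aged replicate 2532 the change of Gpr17 dropped to 0.78 (adjusted p = 0.119) and that of C1ql1 to 0.65 (adjusted p = 0.125), and no gene of the whole table passed. The other 5 aged libraries had 124 ± 31.5 (SD, n = 5) normalized reads of Gpr17 and 219 ± 57.0 (SD, n = 5) of C1ql1, and with them 3676 genes, 24.6%, had an unadjusted p under 0.05. The calls were lost when any 1 of 15 libraries was left out: young vehicle 2410, 2526, 2571, 2722, 2728 and 2731, young LPS 2404, 2408, 2527, 2543 and 2717, and aged 2415, 2420, 2531 and 2532. They held without any 1 of the other 7, and over all 22 the change ran from 0.78 to 1.35 for Gpr17 and from 0.65 to 0.90 for C1ql1. Adjusted p-values ran from 0.0223 to 0.119 and from 0.0223 to 0.125.

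**Figure D2:**
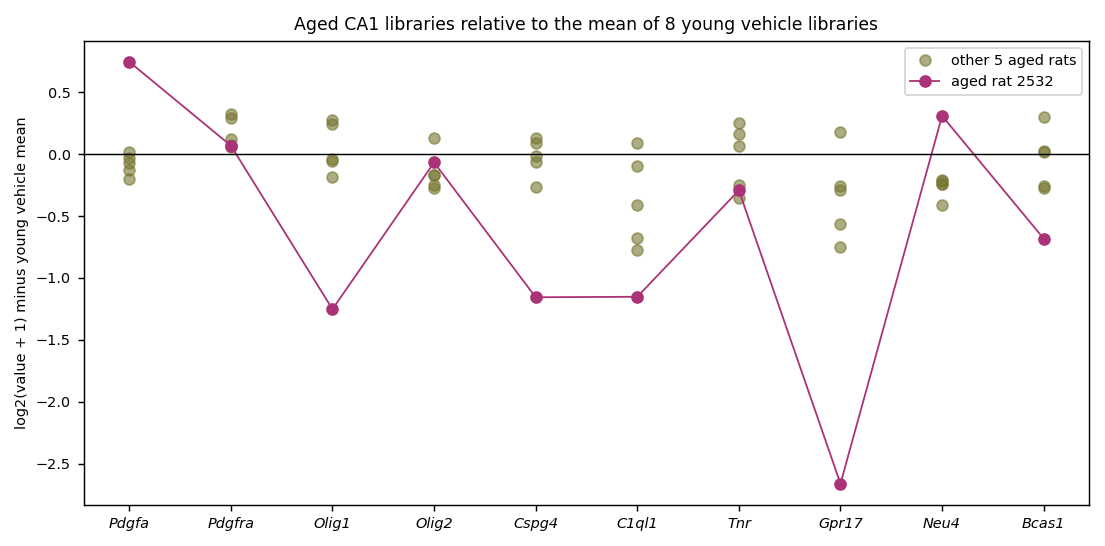
Log2(value + 1) of each gene in the 6 aged CA1 libraries minus the mean of the 8 young vehicle libraries (vertical axis), with replicate 2532 joined by a line. That replicate lay at -2.66 for Gpr17, -1.25 for Olig1, -1.16 for Cspg4 and -1.15 for C1ql1, but at 0.74 for Pdgfa and 0.31 for Neu4.

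The CA1 library of aged replicate 2532 had the fewest recovered reads of the 22, 12292346. It had 3142 rows at 0, where the other aged CA1 libraries had 2332 to 2637. Young vehicle replicate 2572, with the most reads in CA1, had 3723. The part of library quality was not tested. The CA1 library of replicate 2532 did not hold less of every precursor gene. It was the lowest of all 22 CA1 libraries in Gpr17 (23.3), Olig1 (818), Cspg4 (327), C1ql1 (124) and Bcas1 (2404). It was the highest of the 22 in Pdgfa (658) and the highest of the 6 aged in Neu4 (222), and its Pdgfra (1135) and Olig2 (543) lay within the range of the other aged libraries. Its summed mature oligodendrocyte markers, 186029, were the highest of the aged group. In DG the same rat lay between the 7th and the 21st of 22 from the lowest in these 5 genes, with Gpr17 at 108 and Olig1 at 1652. Its Pdgfa there, 327, was the lowest of all 22 DG libraries.

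Neu4, a sialidase of precursors and newly committed cells, was lowest in aged rats in both regions without passing the test. In DG it ran from 93.9 to 159 (median 110) in aged vehicle, from 113 to 224 (median 159) in young vehicle and from 116 to 207 (median 165) in young LPS. All 8 young LPS libraries lay above the aged median. The change in DG was -0.46 (SE 0.17) with age and 0.49 (SE 0.17) between young LPS and aged vehicle, with adjusted p-values of 1.00 and 0.375 by limma. In CA1 all 8 young LPS libraries, from 168 to 251, also lay above the aged median of 153. That change was 0.39 (SE 0.16, limma adjusted p = 0.0866), and 0.48 without replicate 2532. The change of Neu4 with age in CA1 was -0.17 (-0.49 to 0.16), and -0.26 without that replicate. The change between young LPS and aged vehicle differed between CA1 and DG by -0.10 (-0.51 to 0.31).

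Bcas1, which marks early myelinating cells and remains in myelin, varied widely within every group. In CA1 it ran from 2552 to 7166 in young vehicle, from 3040 to 6977 in young LPS and from 2404 to 4740 in aged vehicle. Its change was 0.23 (-0.17 to 0.63) for LPS and -0.15 (-0.58 to 0.29) with age in CA1, and 0.13 (-0.23 to 0.48) and 0.29 (-0.10 to 0.67) in DG. None of these intervals excluded 0, and without replicate 2532, its lowest CA1 library, the change of Bcas1 with age in CA1 was -0.04.

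**Figure D3:**
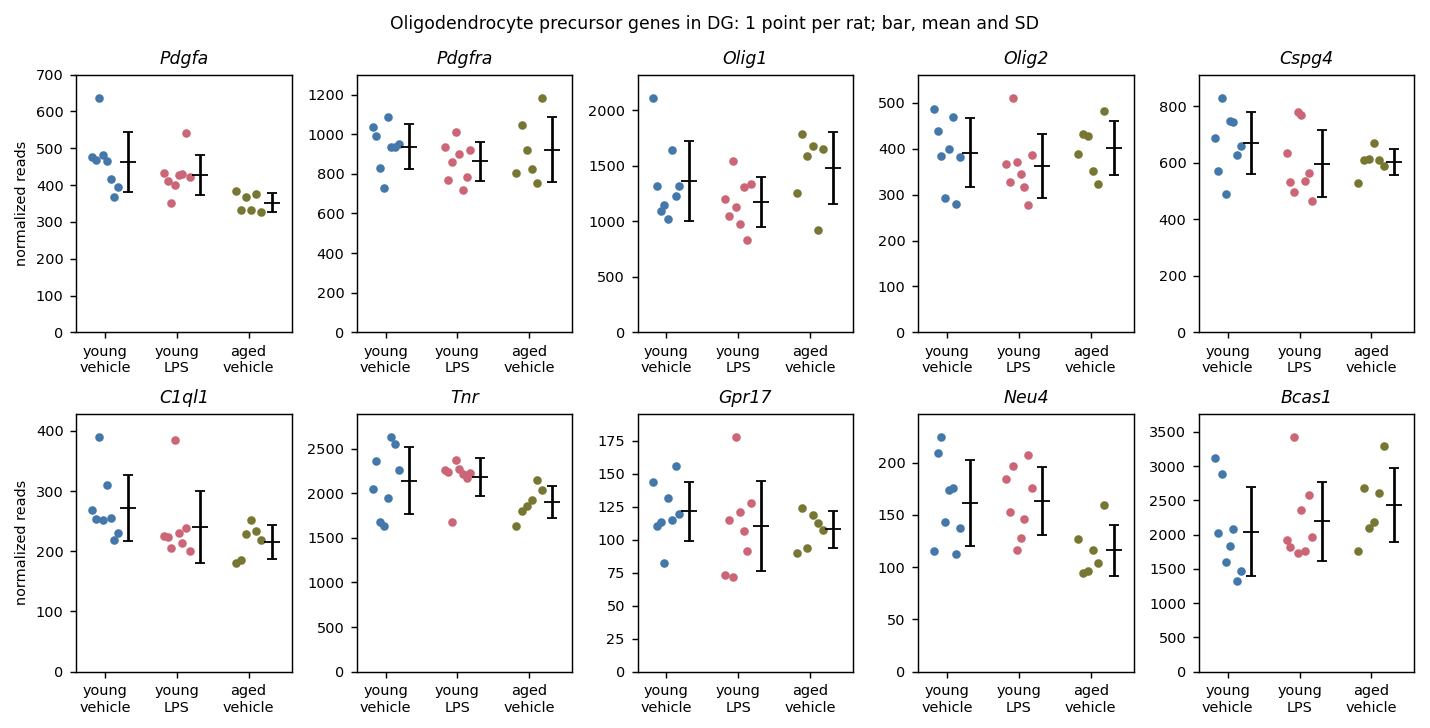
Normalized reads of each gene in DG (vertical axes, linear from 0), 1 point per rat by group, with the group mean and SD as a bar. Pdgfa in the 6 aged rats lay between 327 and 384, below 7 of the 8 young vehicle rats, and Gpr17 had means of 108 to 122 in the 3 groups.

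For LPS in CA1, 0 of the 10 genes passed the limma threshold, as did 0% of all genes. The count was 0 by edgeR and DESeq2 as well, and 0 had an unadjusted p under 0.05, where 6.87% of all genes did. Of the 10 changes 9 were positive with a median of 0.21, beside a median of 0.01 over all genes, of which 47.8% had a change below 0. Markers of some other cells had changes of like sign in this comparison: 15 of 19 mature oligodendrocyte genes were positive (median 0.19), 8 of 10 astrocyte genes (0.18) and 6 of 7 CA1 pyramidal genes (0.28). Others did not: 0 of 7 dentate granule genes were positive (median -0.50), 2 of 8 choroid plexus genes (-0.44) and 4 of 8 endothelial genes (-0.01). Positive were 5 of 9 microglia genes (0.11), 6 of 10 interneuron (0.04), 6 of 10 fibroblast (0.03) and 7 of 10 mural genes (0.08). Their part in the result was not tested. In DG 0 of 10 passed (0.0134% of all genes), 0 by either other tool and 0 at an unadjusted p under 0.05 (7.53% of all genes), 7 changes were negative (51.2% of all genes) and the median was -0.11, beside 0.00 over all genes. The sign of these medians thus differed between regions. The test of the difference passed for 0 of the 10 genes, with 0.00683% of all genes passing.

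With age in CA1, 0 of 10 passed (0.0134% of all genes), also by edgeR and DESeq2. At an unadjusted limma p under 0.05 there were 2, Gpr17 and C1ql1, both lower in aged rats, where 12.6% of all genes were in either direction and 5.8% of all genes were lower. The median was -0.16 with 8 changes negative (49.6% of all genes), and -0.06 without replicate 2532, when none of the 10 had an unadjusted p under 0.05, where 6.07% of all genes did. In DG 0 of 10 passed (0.0134% of all genes), also by edgeR and DESeq2. There Pdgfa, Neu4 and C1ql1, 3 of 10, had an unadjusted p under 0.05, all lower in aged rats, where 2.99% of all genes were in either direction and 1.73% lower. The median was -0.15 in DG with 7 changes negative (48.2% of all genes), beside 0.01 over all genes. CA1 pyramidal markers had a median change of 0.76 with age in DG, 6 of 7 positive, and 0 at an unadjusted p under 0.05. Their part in these changes was not tested beyond covariate fits. Regions differed in 0 of 10 genes, with 0% of all genes passing and Pdgfa at an unadjusted p of 0.0387.

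Between young LPS and aged vehicle in CA1 the median was 0.37 with 8 of 10 changes positive (48% of all genes had a change below 0), and 0.26 without replicate 2532, beside 0.02 and 0.01 over all genes. Cspg4, Gpr17, Neu4 and C1ql1 had an unadjusted p under 0.05, all higher in young LPS, 4 of 10 where 35.8% of all genes did in either direction and 17.3% of all genes were higher. Without replicate 2532 there were 3, where 24.6% of all genes did. In DG 0 of 10 passed, also by edgeR and DESeq2, with 0.0134% of all genes passing. There Neu4 and Pdgfa had an unadjusted p under 0.05, both higher in young LPS, 2 of 10 where 9.1% of all genes did and 4.59% were higher. The median was -0.02 with 6 changes negative (52% of all genes). Regions differed in 0 of 10 genes within rats, with 8.98% of all genes passing, and in 1, Gpr17, without the block by rat. No region difference was fitted without replicate 2532. This comparison shares its young LPS and its aged libraries with the others, so its values are not separate evidence.

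**Figure D4:**
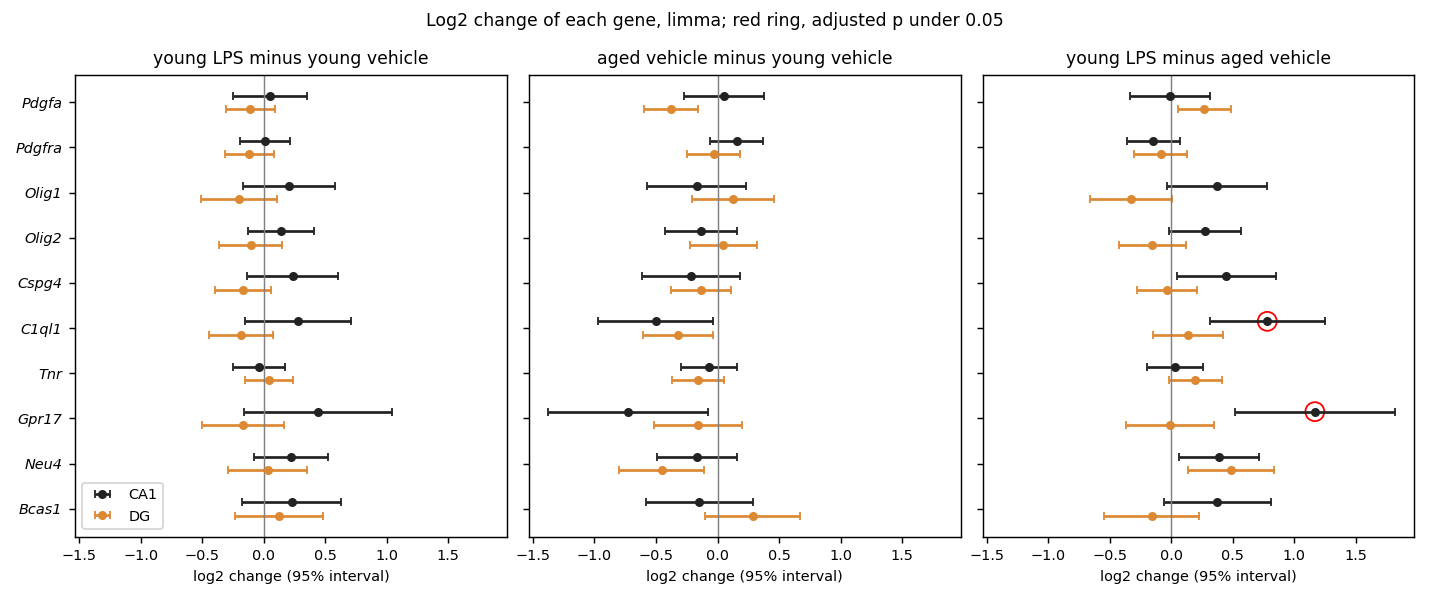
Log2 change of each gene (horizontal axis) with its 95% interval in CA1 (black) and DG (orange) for the 3 comparisons, from limma with all 3 groups in 1 fit per region. Only Gpr17 at 1.17 and C1ql1 at 0.78 in CA1 between young LPS and aged vehicle carry the ring of an adjusted p under 0.05.

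Other genes of the same pathways were read from lists of the growth factor family, the transcription factors, further precursor genes, committed cells and the matrix partners of tenascin-R, the 10 genes left out. For LPS, 0 of the 4 family genes, 0 of 15 factors and 0 of 18 tested precursor genes passed in either region. Nor did any of the 15 committed genes or 10 matrix partners, and with age the counts were 0 as well. Of all genes 0% passed for LPS in CA1, and 0.0134% for LPS in DG and with age in either region. The lowest p-values for LPS in CA1 were those of Traf4, a signalling adaptor, at 213 ± 36.9 (SD, n = 8) against 164 ± 47.3 (SD, n = 8), and Tnc, which encodes tenascin-C, at 199 ± 27.8 (SD, n = 8) against 162 ± 30.8 (SD, n = 8), both with an adjusted p of 0.654. In DG the lowest p for LPS was that of Mpzl1, a committed gene, lower at 412 ± 51.0 (SD, n = 8) against 491 ± 58.6 (SD, n = 8) (limma adjusted p = 0.533). Pdgfd, a further ligand of the family, was higher at 72.0 ± 16.4 (SD, n = 8) against 48.8 ± 19.2 (SD, n = 8) in DG (limma adjusted p = 0.551). With age in DG, Id4, an inhibitor of helix-loop-helix factors, was 343 ± 39.5 (SD, n = 6) against 261 ± 32.5 (SD, n = 8), a change of 0.39 (limma adjusted p = 1.00).

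Between young LPS and aged vehicle in CA1, 3 of the 4 other family genes passed, where 8.73% of all genes did. Pdgfb, another ligand, was higher in young LPS (0.45, SE 0.12), and Pdgfd (-0.89, SE 0.27) and Pdgfc (-0.75, SE 0.23) were lower. Id4 was lower by the same test (-0.45, SE 0.14), the only 1 of 15 factors to pass, and Nfasc, which encodes the axonal and glial adhesion molecule neurofascin, was higher (0.35, SE 0.10), the only 1 of 15 committed genes. Among matrix partners Cntn1 (-0.39, SE 0.11) and Hapln1 (-0.69, SE 0.21) were lower, and 0 of 18 other precursor genes passed. None of these calls held without replicate 2532, which had 254 normalized reads of Pdgfd where the other aged libraries ran from 58.3 to 76.1, 384 of Pdgfc against 97.6 to 145, and 1984 of Hapln1 against 548 to 874. Without it Pdgfb was 0.37, Pdgfd -0.57, Pdgfc -0.48, Id4 -0.33, Nfasc 0.31, Cntn1 -0.33 and Hapln1 -0.43. In DG, 0 genes of these lists passed in this comparison, where 0.0134% of all genes did. Id2, a further inhibitor of helix-loop-helix factors, had the lowest p, at 1080 ± 228 (SD, n = 8) for young LPS and 644 ± 95.5 (SD, n = 6) for aged vehicle (0.73, SE 0.17, limma adjusted p = 0.222).

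Across rats, with group means removed, more pairs of the genes varied together in CA1 than in DG. Of 45 pairs in each region, 90 relations in all, 12 in CA1 and 3 in DG passed a permutation test of r within groups after adjustment over the 90, and all 15 also passed by rho. By rho alone 1 more passed in each region, Neu4 with Olig2 in CA1 (rho = 0.66, r = 0.48, adjusted permutation p = 0.0178 and 0.0528) and Gpr17 with Neu4 in DG (rho = -0.64, r = -0.54, adjusted permutation p = 0.0178 and 0.0616). Their r without the 2 farthest rats was 0.46 and -0.41. The median r was 0.30 in CA1 and 0.10 in DG, beside -0.00 over all gene pairs in both regions, and the difference between regions was not tested. In CA1, Cspg4 and Olig1 correlated at r = 0.92 and rho = 0.85 (n = 22, adjusted permutation p = 0.0003 and 0.00045). That r was 0.87 without replicates 2532 and 2547, the 2 farthest in Cspg4. Cspg4 and Gpr17 reached r = 0.86 and rho = 0.77 (adjusted permutation p = 0.0003 and 0.00225), with 0.74 when the 2 farthest were left out. Gpr17 and Olig1 reached r = 0.85 and rho = 0.63 (adjusted permutation p = 0.00234 and 0.0196), and 0.70 without the 2 farthest. Cspg4, Olig1, Gpr17, C1ql1 and Bcas1 thus formed 9 of the 12 pairs, C1ql1 and Bcas1 alone missing at r = 0.53 (adjusted permutation p = 0.0633). The CA1 library of replicate 2532 was the lowest of all 22 in each gene of this group. For C1ql1 with Olig1 and Bcas1 with Olig1 the 2 farthest rats did not include 2532.

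Pdgfra and Olig2 stood largely outside that group in CA1. By both measures Pdgfra passed only with Tnr (r = 0.57, rho = 0.64, adjusted permutation p = 0.0286 and 0.0178, 0.51 without the 2 farthest). By both measures Olig2 passed only with Bcas1 (r = 0.61, rho = 0.63, adjusted permutation p = 0.0192 and 0.0196, 0.53 without the 2 farthest). The only negative pair among the 15 was Tnr with Pdgfa, at r = -0.57 and rho = -0.62 (adjusted permutation p = 0.0404 and 0.0178), and -0.54 without the 2 farthest. In DG the 3 pairs were Cspg4 with C1ql1 (r = 0.69, rho = 0.72), Olig1 with Olig2 (r = 0.69, rho = 0.69) and Pdgfra with Olig2 (r = 0.62, rho = 0.64). Their adjusted permutation p-values for r were 0.0042, 0.0081 and 0.0178, for rho 0.00378, 0.0133 and 0.0178, and r without the 2 farthest was 0.65, 0.61 and 0.51. Within the 8 rats of number series 24 and the 10 of series 25 every one of these 15 pairs kept its sign. The pairs were picked over all rats, these included, so the kept signs are not separate support. Cspg4 with Olig1 was 0.94 in both series, Pdgfra with Olig2 in DG was 0.55 and 0.85, and Pdgfra with Tnr in CA1 was 0.32 and 0.79. Series 27 held 4 rats, too few for a value. No gene passed a correlation of its level in CA1 with that in DG of the same rat: over the 10 genes r ran from -0.29 to 0.35, with adjusted permutation p-values of 0.640 to 0.685, and rho from -0.26 to 0.29, with 0.645 to 0.855.

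**Figure D5:**
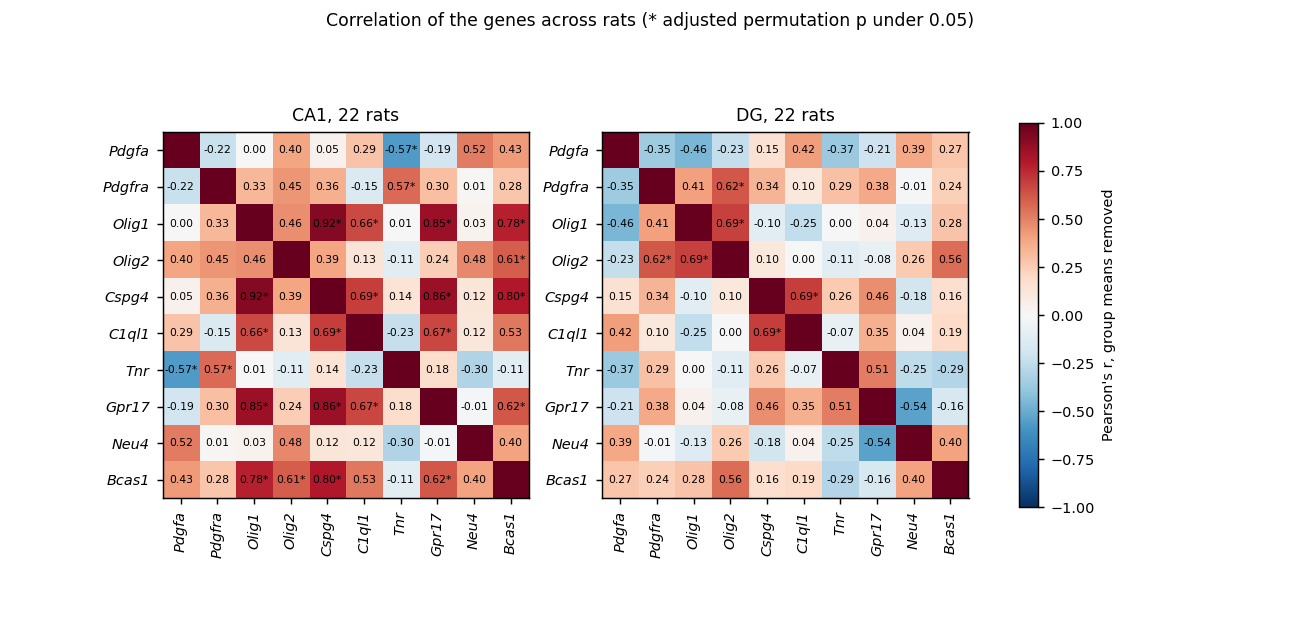
Pearson's r between the genes across 22 rats in CA1 (left) and DG (right), on log2(value + 1) with group means removed, red for positive and blue for negative, with a star for an adjusted permutation p under 0.05. In CA1 the cells of Cspg4 with Olig1, Gpr17 and Bcas1 read 0.92, 0.86 and 0.80, and in DG those of Cspg4 with the same genes read -0.10, 0.46 and 0.16.

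Markers of other cells went with some of these genes, in 60 relations tested by permutation, counted as passed by r. The mean of the mature oligodendrocyte markers correlated with Olig2 (r = 0.79 and rho = 0.84 in CA1, 0.82 and 0.85 in DG), Bcas1 (0.81 and 0.84 in CA1, 0.75 and 0.68 in DG) and Olig1 (0.54 and 0.69 in CA1, 0.73 and 0.67 in DG). The highest adjusted permutation p among these was 0.0358, and without the 2 farthest rats r was 0.78, 0.76, 0.76, 0.57, 0.46 and 0.56 in that order. Pdgfra, Cspg4, Gpr17, Neu4, C1ql1, Tnr and Pdgfa did not pass with these markers in either region. In CA1, mural markers went with Bcas1 (r = 0.65, rho = 0.66, adjusted permutation p = 0.0294 and 0.0172) and Olig2 (r = 0.58, rho = 0.65, adjusted permutation p = 0.0137 and 0.0131), with 0.64 and 0.56 without the 2 farthest. Cspg4 did not pass with mural markers (r = 0.45 in CA1 and 0.43 in DG, adjusted permutation p = 0.104 and 0.146). Pdgfra did not pass with fibroblast markers (r = 0.37 and 0.49, adjusted permutation p = 0.235 and 0.104).

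Summed fibroblast markers, 10 genes in CA1, ran from 503 to 1694 in young vehicle, from 669 to 843 in young LPS and from 571 to 1495 in aged vehicle, and no gene of the list was at 0 throughout a group. In DG, where 5 of the 10 had a row, the sums ran from 137 to 1510, 157 to 437 and 182 to 1219. Summed mural markers, 10 genes, ran in CA1 from 2232 to 4077, 2705 to 3890 and 2153 to 2885. Of these 1 passed between young LPS and aged vehicle in CA1, where 8.73% of all genes did. It was Notch3, a receptor of mural cells, higher in young LPS (0.64, SE 0.19), as Gpr17 and C1ql1 were. Of the 10 mural changes there 9 were positive, with a median of 0.31, beside 8 of 10 and 0.37 for the genes followed here. In the same comparison 1 of 8 endothelial genes passed as higher. As lower passed 1 of 9 microglia, 1 of 10 interneuron and 1 of 7 dentate granule genes. No fibroblast, choroid plexus, astrocyte or CA1 pyramidal gene passed. Mature oligodendrocyte sums in CA1, 19 genes, ran from 108223 to 203627, 123044 to 259129 and 120720 to 186029. Of the 19, 1 passed in the same comparison, Aspa, an enzyme of oligodendrocytes, lower in young LPS (-0.78, SE 0.24). Most of that list went the other way: 13 of the 19 changes were positive, with a median of 0.21, where 48% of all genes had a change below 0. Notch3 and Aspa are named after their values were seen, and neither call held without replicate 2532. The part of these cells in the results was not tested beyond covariate fits: with the mature oligodendrocyte mean as a covariate the CA1 change between young LPS and aged vehicle was 1.08 for Gpr17 and 0.75 for C1ql1, each with an adjusted p of 0.0645 by limma.

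Across all tested genes, the 5 whose levels went most closely with Pdgfra in CA1 (n = 22, group means removed) were Atl3, Slc6a20, Ndst4, Grin3a and Ednrb, with r from 0.81 to 0.82. In DG they were Adgrf5, Antxr1, Scarb2, Itgad and Slc16a7, with r from 0.79 to 0.85. Tnr, the best placed of the 10 genes here, ranked 270 of 14914 for Pdgfra in CA1, and Olig2 ranked 115 of 14903 in DG. For Olig2 the 5 in CA1 were Fam83d, Tmem63a, Car14, Cldn11 and Pou3f3 (r from 0.80 to 0.86), and in DG Cd44, Cnp, Carhsp1, Myo5c and Mobp (r from 0.83 to 0.86). Cldn11, Cnp and Mobp encode components of myelin. These r values are descriptions, picked as the highest of all genes.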

How the data were processed

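Polyadenylated RNA of CA1 and DG was sequenced after library preparation with the Ion Total RNA-Seq kit v2, per the labels' protocols. The authors deposited normalized reads, a signal scaled between libraries, in 1 table per region. The tools listed, per the submitters' processing notes, are STAR, Partek and DESeq2, without roles, and the build listed is rn6. No source used here gives versions, annotation, filters or use of strand. Dividing each library's values by its smallest step gave whole reads, within 0.1, for 99.8% (CA1) and 100% (DG) of low values.

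Tested were genes reaching a value of 10 in 6 or more libraries, with limma 3.58.1 (R 4.3.3; trend and robust options) on log2(value + 1), which understates changes of low genes, with Benjamini-Hochberg adjustment over all genes and a threshold of 0.05. Region differences were fitted with the rat as a block, since both regions came from 1 hippocampus. edgeR 4.0.16 and DESeq2 1.42.0 used recovered reads. Correlations used 100000 permutations within groups. The fits were also run on simulated data with known changes, and the outcome is not given here. The genes to be named were the 10, up to 3 further genes of lowest p per list and comparison (not all of them printed), and the 5 genes most like Pdgfra and Olig2. Members and lists were chosen with earlier results of these data known. Alternatives covered pseudocount, filter, scaling, groups in the fit, covariates, tools and libraries left out. p-values measure the spread between rats.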

Additional observations from a re-analysis of the deposited data

Results flagged for a closer look

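In 8 of 60 groups of values (10 genes, 3 groups, 2 regions) 1 library lay far from the others of its group by Dixon's test, where chance gives about 1 in 20. In CA1, aged replicate 2532 was high in Neu4 (222 normalized reads, the next at 155) and Pdgfa (658, the next at 396), and young LPS replicate 2404 was high in Olig1 (3496, the next at 2486). In DG, young LPS replicate 2527 was high in C1ql1 (385), replicate 2408 was high in Olig2 (511) and low in Tnr (1676), replicate 2573 was high in Pdgfa (542), and young vehicle replicate 2526 was high in Pdgfa (636). No cause was tested.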

How the results depend on the processing

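The count of 2 genes past the threshold between young LPS and aged vehicle in CA1 was 0 with no filter on low values, with only these 2 groups in the fit, with the dissection score (mean CA1 pyramidal less mean dentate granule marker level) or the mature oligodendrocyte mean as a covariate, and without replicates 2526, 2572 and 2532, which were high in fibroblast markers. It ran from 0 to 2 when 1 library was left out. The cause was not tested. The replicate block is the rat: without the block, the count of genes whose change between young LPS and aged vehicle differed between regions was 1 in place of 0. The block changed no other count, and no other count of genes past the threshold moved under these alternatives. The counts of region differences were not refitted with covariates or with libraries left out.

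Of 720 values of single genes over 12 other settings, 687 kept direction and side of the threshold, 10 lost the call and 23 changed sign, none of these past the threshold. Without replicates 2526, 2572 and 2532, changes with age in CA1 became 0.0805 for Cspg4, 0.00113 for Tnr, 0.0532 for Bcas1, 0.137 for Olig1 and -0.0555 for Pdgfa, and in DG -0.0211 for Olig1 and -0.000111 for Olig2. Those between young LPS and aged vehicle in CA1 became -0.0151 for Tnr and 0.130 for Pdgfa, and for LPS in DG Tnr became -0.0327. Aged replicate 2532 alone was also left out, an alternative added for all 10 genes after seeing the data. Changes with age in CA1 were then 0.0472 for Olig1 and -0.0830 for Pdgfa, against -0.169 and 0.0550 with it. Those between young LPS and aged vehicle in CA1 were -0.0151 for Tnr and 0.130 for Pdgfa, against 0.0290 and -0.00765 with it. For LPS in CA1, Pdgfra became -0.0106 with the number series, -0.0766 with the dissection score and -0.0342 with the mature oligodendrocyte mean as a covariate. With the dissection score Bcas1 became -0.0120, Olig2 -0.0327 and Pdgfa -0.0308, and with the mature oligodendrocyte mean Pdgfa became -0.0219. With age in DG, Olig2 became -0.0485 with the number series, -0.0497 with the dissection score and -0.0281 with the mature oligodendrocyte mean, and Olig1 -0.0172 with the dissection score. Gpr17 between young LPS and aged vehicle in DG was 0.0371 by edgeR and 0.0372 by DESeq2. Gpr17 had 16 to 367 reads per CA1 library.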
